A study of Mus musculus with 7 samples.

Results

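The core circadian clock genes are 10 of the 19614 gene names in the deposited count tables: Arntl, Clock, Npas2, Per1, Per2, Per3, Cry1, Cry2, Nr1d1 and Nr1d2. They were taken by name, by a rule that uses no measured value, and all 10 are listed in every library's table. The tables come from droplet single-cell RNA sequencing of 2 cortical areas, ventromedial prefrontal (PFC) and motor (MC), in B6129SF1/J mice at postnatal day 30, housed in 12 h of light and 12 h of dark. DTA mice were Opn4-Cre/+; Brn3b-zDTA/+, and CTRL mice were Opn4-Cre/+; Brn3b-+/+, so that both genotypes carried the Cre driver. Opn4 encodes melanopsin, the photopigment of intrinsically photosensitive retinal ganglion cells (ipRGCs), and DTA is the diphtheria toxin A chain. The series calls the DTA mice ipRGC-ablated. The toxin allele is named for a second gene, Brn3b, so the genotype alone does not say that every ipRGC was lost. The ablated cells lie in the retina, so the cortical libraries hold no check of the ablation. There were 3 PFC DTA, 2 PFC CTRL, 1 MC DTA and 1 MC CTRL libraries. The sources used here do not give the time of day at which each brain was taken, nor whether a library pooled animals.

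The clock is a feedback loop that runs in nearly every cell. ARNTL (also called BMAL1) pairs with CLOCK, or with its relative NPAS2, and the pair switches on genes that carry an E-box in their promoters. Among these are the Per and Cry genes, whose proteins return to the nucleus and block the pair, and Nr1d1 and Nr1d2, which encode the nuclear receptors REV-ERB alpha and beta and repress Arntl through ROR elements. The RNAs of Arntl and of the Per and Nr1d genes therefore peak at broadly opposed times of day in many tissues. ipRGCs carry light signals to the suprachiasmatic nucleus, the pacemaker that sets the clocks of the rest of the body, and to other brain areas. Whether the DTA mice lost the signals to this pacemaker was not tested here.

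Promoters of the members, from RefSeq on GRCm38.p6, show where such elements lie. Windows of 250 bases before to 50 after a start site were held for 9 of the 10 members (Per2 had none), 13 windows in all, and 6 of the 13 held at least 1 of the letters searched. The search covered both strands for the E-box CACGTG, the E'-box CACGTT, the D-box forms TTATGTAA and TTACGTAA, the ROR element TAGGTCA and the cAMP response element TGACGTCA. These were in 7.15%, 4.68%, 0.938%, 0.119%, 2.61% and 1.79% of 32851 windows of the same length. The 5 windows below are shown because they hold elements of each arm of the loop, with the matched letters in capitals, each written 5′ to 3′ on the strand of its gene.
Per3, chr4:151044616-151044915, minus strand, D-box TTATGTAA at 205 and at 158 bases before the start site: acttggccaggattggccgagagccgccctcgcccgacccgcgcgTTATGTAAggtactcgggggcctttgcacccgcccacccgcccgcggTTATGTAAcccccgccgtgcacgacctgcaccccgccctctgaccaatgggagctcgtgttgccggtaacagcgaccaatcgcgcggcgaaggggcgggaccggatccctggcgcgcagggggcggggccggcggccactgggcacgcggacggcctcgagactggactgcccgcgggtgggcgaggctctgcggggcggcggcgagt
Cry1, chr10:85185005-85185304, minus strand, E'-box (read as AACGTG) at 79 and E-box at 60 bases before the start site: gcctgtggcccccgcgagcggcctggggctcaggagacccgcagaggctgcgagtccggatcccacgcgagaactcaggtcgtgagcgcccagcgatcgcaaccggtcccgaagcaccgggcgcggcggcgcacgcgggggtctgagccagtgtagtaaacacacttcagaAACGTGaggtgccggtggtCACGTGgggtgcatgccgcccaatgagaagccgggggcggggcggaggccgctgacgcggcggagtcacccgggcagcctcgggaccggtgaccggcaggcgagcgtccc
Per1, chr11:69098699-69098998, plus strand, E-box at 166 bases before the start site: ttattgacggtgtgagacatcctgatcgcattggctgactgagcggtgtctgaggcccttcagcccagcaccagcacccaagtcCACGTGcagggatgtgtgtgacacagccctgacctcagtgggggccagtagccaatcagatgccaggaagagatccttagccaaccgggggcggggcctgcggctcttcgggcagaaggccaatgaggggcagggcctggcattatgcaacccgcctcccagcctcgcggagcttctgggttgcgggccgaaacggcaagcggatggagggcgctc
Nr1d1, chr11:98775328-98775627, minus strand, E'-box (read as AACGTG) at 28 bases before the start site: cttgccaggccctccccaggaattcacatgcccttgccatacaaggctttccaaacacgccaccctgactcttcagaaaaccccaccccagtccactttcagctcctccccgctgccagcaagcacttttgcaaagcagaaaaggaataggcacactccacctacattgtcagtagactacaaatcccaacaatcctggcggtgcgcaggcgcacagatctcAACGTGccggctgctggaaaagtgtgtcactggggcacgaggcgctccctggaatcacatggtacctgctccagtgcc
Arntl, chr7:113207261-113207560, plus strand, ROR element at 30 bases after the start site: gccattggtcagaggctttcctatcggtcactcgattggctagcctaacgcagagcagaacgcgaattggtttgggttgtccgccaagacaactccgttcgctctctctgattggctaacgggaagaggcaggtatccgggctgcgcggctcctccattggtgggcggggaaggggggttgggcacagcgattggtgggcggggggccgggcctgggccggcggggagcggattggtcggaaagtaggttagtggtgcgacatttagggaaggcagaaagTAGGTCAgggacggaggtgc
The sixth window with a match was that of Cry2, with an E'-box at 166 bases before its start site. A match is a description of the letters and not of binding, and the windows of Clock, Npas2 and Nr1d2 held none of these letters.

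The 7 libraries held 32985 cells, with totals of 6180059 to 30972905 unique molecular identifiers (UMIs, each 1 captured RNA molecule). After removal of doublet calls 31869 cells remained. They were clustered without the 10 members and without the other circadian genes named below, and clusters were named from marker genes. The 7 classes with at least 30 cells in every library were astrocytes, endothelial cells, inhibitory neurons, excitatory neurons, oligodendrocyte precursors, mature oligodendrocytes and microglia, and they held 25963 cells. Median UMIs per cell were 1360, 4924 and 1558.5 in the PFC DTA libraries, 4827.5 and 1970 in the PFC CTRL libraries, 4752 in MC DTA and 2642 in MC CTRL. PFC DTA replicate 3 stood apart, with 42.3% of its cells in unnamed clusters, against 5.02% to 10.0% in the other 6 libraries. Astrocytes fell mostly into 1 of 2 clusters, depending on the library. Cluster 7 held 92.2% of the astrocytes of MC DTA, 88.2% of PFC CTRL replicate 1, 81.9% of PFC DTA replicate 2 and 66.1% of PFC DTA replicate 3. Cluster 4 held 84.2% of those of MC CTRL, 83.1% of PFC CTRL replicate 2 and 79.2% of PFC DTA replicate 1.

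Cell classes differed in which clock genes they held. Levels are CPM, UMI counts per 1000000 UMIs of a class in a library, given over the 7 libraries. Each class was tested against the mean of the other 6 in a single model with the library as a block. The test was the quasi-likelihood one of edgeR, with p-values adjusted by Benjamini-Hochberg over the 12395 genes tested, and a gene was called at an adjusted p under 0.05. Of the 70 tests of the members, 53 were called, 27 higher and 26 lower in the class, and the same test called 65.5% of all genes and classes tested, so the share of members called is close to that of any gene. What follows is therefore about which member is high in which class.

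**Figure D1:**
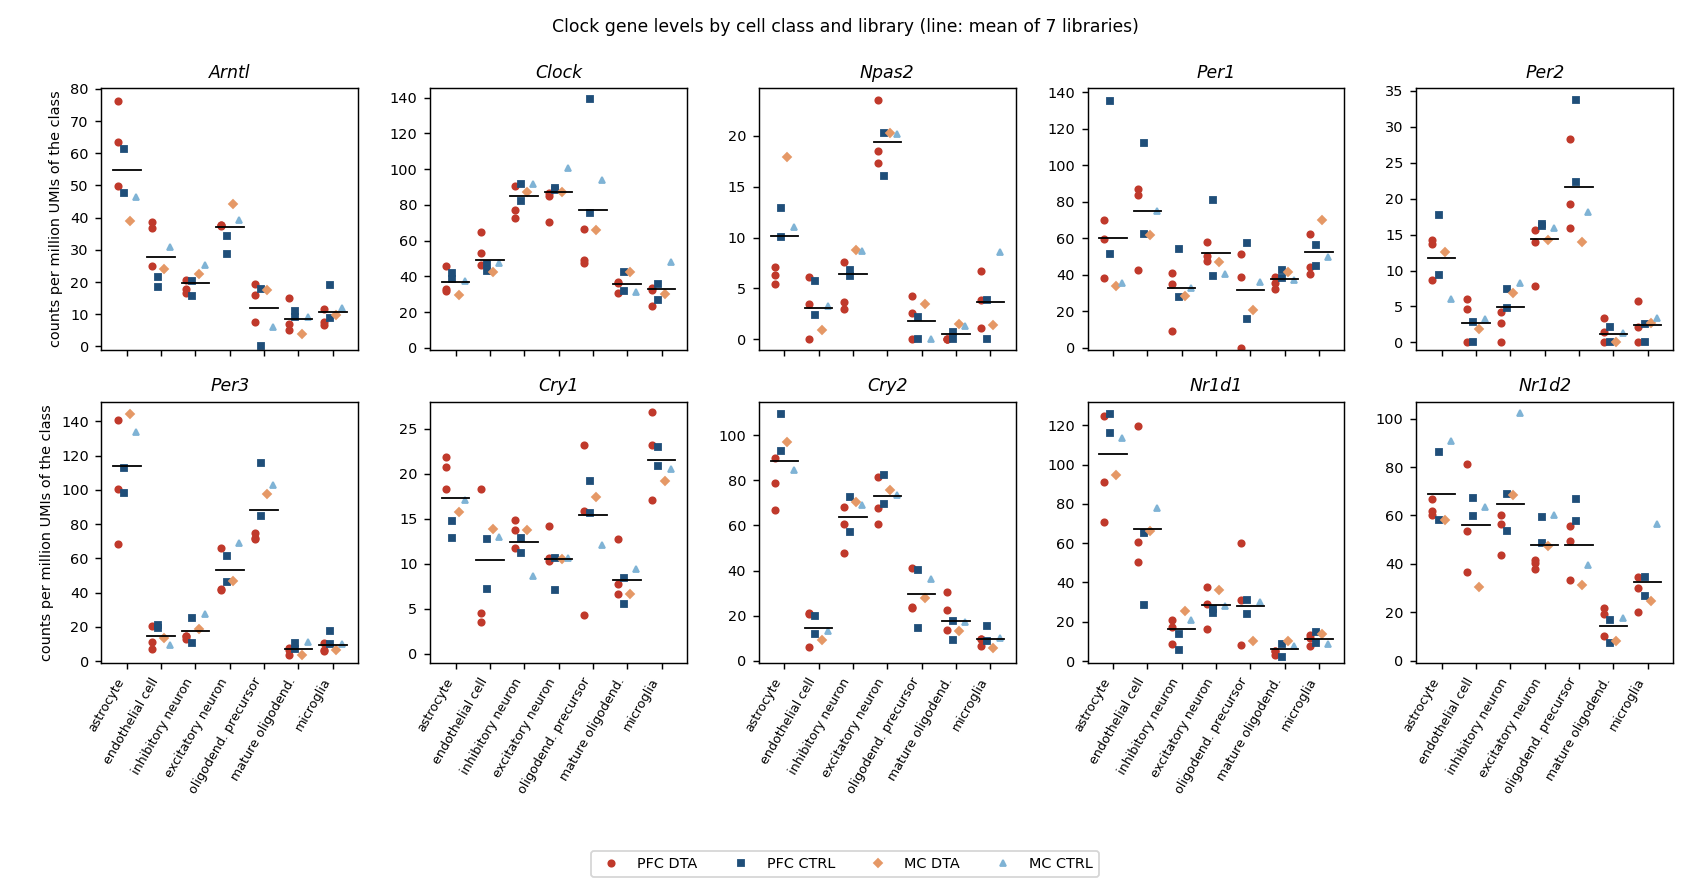
Each panel plots 1 clock gene in CPM (y axis) by cell class (x axis), each point 1 library coloured and shaped by group and each black line the mean of the 7 libraries. Astrocytes are highest for Arntl, Per3, Cry2, Nr1d1 and Nr1d2, excitatory neurons for Npas2 and Clock, and mature oligodendrocytes are lowest for 7 of the 10 genes.

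Of the activators, Arntl (chr7:113207465-113314126, plus strand) was highest in astrocytes, where the lowest, median and highest library had 39.0, 49.8 and 76.3 CPM. Excitatory neurons followed with 28.7, 37.7 and 44.2 CPM, and mature oligodendrocytes had the least, 3.72, 9.05 and 15.1 CPM. The ranges of neighbouring classes overlapped at every step of this order, although astrocytes and excitatory neurons were each above the mean of the other classes in 7 of 7 libraries. The log2 difference from the other classes was 1.67 in astrocytes (SE 0.135, edgeR adjusted p = 1.78e-16), 0.84 in excitatory neurons and 0.60 in endothelial cells, and it was -1.12 in mature oligodendrocytes and -1.17 in oligodendrocyte precursors.

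Clock (chr5:76209868-76304792, minus strand), the partner of ARNTL, had another order. It averaged 87.0 ± 8.88 CPM in excitatory neurons, 84.8 ± 7.54 CPM in inhibitory neurons and 76.9 ± 31.8 CPM in oligodendrocyte precursors (SD, n = 7 libraries), against 36.8 ± 5.88 CPM in astrocytes and 32.8 ± 7.91 CPM in microglia. In astrocytes, the class richest in Arntl, Clock was called lower than in the other classes (log2 difference -0.57, SE 0.112, adjusted p = 1.39e-05). It was called higher in excitatory neurons (0.67) and in inhibitory neurons (0.53), which did not differ from each other beyond their spread.

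Npas2 (chr1:39193731-39363236, plus strand), which can take the place of CLOCK in the forebrain, was chiefly an excitatory neuron RNA. Excitatory neurons had 16.1, 20.2 and 23.5 CPM in the lowest, median and highest library, and were above astrocytes, the next class, in 7 of 7. Their log2 difference from the other classes was 2.43 (SE 0.161, adjusted p = 2.95e-20). Astrocytes ranged over 5.45 to 17.9 CPM, and mature oligodendrocytes had 0 UMIs in 4 of 7 libraries, which allows up to 1.38 to 7.63 CPM in them, and at most 1.49 CPM in the others. Free RNA from excitatory neurons reaches other droplets, so the level of 6 excitatory neuron genes was measured in each class as a gauge. The median of the libraries was 3.07% to 6.57% of the excitatory level for these genes in astrocytes, and 54.9% for Npas2. In mature oligodendrocytes the gauge genes had 2.80% to 5.70% and Npas2 had 0.0%. In oligodendrocyte precursors Npas2, at 13.9% of its excitatory level, lay within the gauge (2.96% to 15.2%), and this level is not read as expression. In endothelial cells it had 14.7%, above the highest gauge gene (9.45%), but on 14 UMIs in all 7 libraries.

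Of the period genes, whose proteins repress the ARNTL pair, Per3 (chr4:151003652-151044665, minus strand) separated the classes most clearly. The lowest, median and highest library had 68.2, 113 and 144 CPM in astrocytes, 71.6, 84.6 and 115 CPM in oligodendrocyte precursors, 41.6, 46.8 and 68.7 CPM in excitatory neurons and 10.8, 14.9 and 27.6 CPM in inhibitory neurons. Every oligodendrocyte precursor value was above every excitatory value, and every excitatory value above every inhibitory value, while astrocytes and oligodendrocyte precursors overlapped. The log2 difference from the other classes was 2.52 in astrocytes (SE 0.112, adjusted p = 5.25e-28), 1.57 in oligodendrocyte precursors and 0.99 in excitatory neurons. It was -1.86 in mature oligodendrocytes, the later stage of the same lineage, which averaged 7.26 ± 2.95 CPM (SD, n = 7).

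Per2 (chr1:91415982-91459324, minus strand) was scarcer and was likewise high in oligodendrocyte precursors. These had 13.9, 19.3 and 33.7 CPM in the lowest, median and highest library, against 7.88, 15.6 and 16.5 CPM in excitatory neurons, and the ranges overlapped. Called differences from the other classes were 1.81 in oligodendrocyte precursors (SE 0.291, adjusted p = 5.56e-07), 1.41 in excitatory neurons, 1.17 in astrocytes, -1.08 in endothelial cells, lost without MC DTA (-0.98, adjusted p = 0.0502), and -2.14 in mature oligodendrocytes (log2). Mature oligodendrocytes had 11 Per2 UMIs in all 7 libraries together.

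Per1 (chr11:69095217-69109960, plus strand), which also responds to neuronal activity and stress hormones, was flatter. It averaged 75.1 ± 22.4 CPM in endothelial cells, 60.4 ± 35.7 CPM in astrocytes, 52.5 ± 10.8 CPM in microglia and 31.5 ± 20.5 CPM in oligodendrocyte precursors (SD, n = 7). It was called higher in endothelial cells (log2 difference 0.82, SE 0.139, adjusted p = 7.29e-07) and in microglia (0.63, not called with library totals and no size factor), and lower in inhibitory neurons (-0.82) and in oligodendrocyte precursors (-1.03). The call in astrocytes (0.38, adjusted p = 0.011) depended on PFC CTRL replicate 1, which had 135 CPM where the other 6 libraries had 33.7 to 69.9 CPM. Without it the difference was 0.23, adjusted p = 0.148.

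The cryptochromes, which repress beside the PER proteins, were split. Cry2 (chr2:92403646-92434043, minus strand) was high in astrocytes, at 66.7, 89.98 and 109.6 CPM in the lowest, median and highest library, and in both neuron classes, at 47.6, 68.1 and 72.5 CPM in inhibitory neurons and 60.7, 73.4 and 82.5 CPM in excitatory neurons. All these values were above every value of oligodendrocyte precursors (14.4 to 41.2 CPM). Microglia had the least, 5.48 to 15.3 CPM. The log2 differences from the other classes were 1.74 in astrocytes, 1.22 in excitatory neurons (SE 0.0947, adjusted p = 1.99e-17) and 0.93 in inhibitory neurons, and -1.59 in microglia and -1.29 in endothelial cells.

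Cry1 (chr10:85131700-85185064, minus strand) was highest in microglia, the class with the least Cry2. Microglia had 17.1, 20.8 and 26.8 CPM in the lowest, median and highest library and were above the mean of the other classes in 7 of 7, but they overlapped astrocytes, at 12.9 to 21.8 CPM. The log2 difference was 1.18 in microglia (SE 0.18, adjusted p = 9.69e-08) and -0.50 in excitatory neurons. Smaller calls, 0.53 in astrocytes, -0.38 in inhibitory neurons and -0.39 in mature oligodendrocytes, were each lost when 1 library was left out: without PFC DTA replicate 2 in astrocytes (0.36, adjusted p = 0.0768), without MC CTRL (-0.24, 0.16) or PFC CTRL replicate 2 (-0.32, 0.0729) in inhibitory neurons, and in mature oligodendrocytes without MC DTA (-0.37, 0.103), PFC CTRL replicate 1 (-0.36, 0.0848), PFC CTRL replicate 2 (-0.42, 0.0701) or PFC DTA replicate 3 (-0.30, 0.208).

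Nr1d1 (chr11:98767932-98775333, minus strand) had the steepest class order of the REV-ERB pair. Its lowest, median and highest library were 70.9, 114 and 126 CPM in astrocytes and 28.7, 65.4 and 119.7 CPM in endothelial cells, against 1.84, 5.08 and 10.4 CPM in mature oligodendrocytes. Astrocytes and endothelial cells overlapped, and both lay above mature oligodendrocytes in every library. The log2 differences were 2.46 in astrocytes (SE 0.138, adjusted p = 2.76e-22), 1.64 in endothelial cells, -0.97 in inhibitory neurons, -1.11 in microglia and -1.94 in mature oligodendrocytes. Exons of Nr1d1 overlap those of Thra, a thyroid hormone receptor gene on the other strand, and the sources used here do not say whether counting used the strand. Thra had another order, averaging 581 CPM in excitatory neurons, 434 CPM in mature oligodendrocytes and 177 CPM in astrocytes.

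Nr1d2 (chr14:18204054-18239127, minus strand) was more even. It averaged 68.8 ± 13.8 CPM in astrocytes, 64.8 ± 18.7 CPM in inhibitory neurons, 56.0 ± 17.6 CPM in endothelial cells and 47.9 ± 8.91 CPM in excitatory neurons, with overlapping ranges, and 14.5 ± 5.79 CPM in mature oligodendrocytes (SD, n = 7). Calls were 0.84 in astrocytes (SE 0.116, adjusted p = 7.31e-09), 0.43 in inhibitory neurons, 0.41 in endothelial cells, lost without PFC DTA replicate 3 (0.29, adjusted p = 0.0683), and -1.37 in mature oligodendrocytes (log2).

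By class, astrocytes had 9 members called higher and 1, Clock, called lower, where 64.6% of all genes were called, 33.7% higher and 30.9% lower. Endothelial cells had 4 higher and 3 lower (66.7% of all genes called, 31.6% higher and 35.0% lower). Inhibitory neurons had 4 and 4 (71.8%, 36.7% and 35.1%), and excitatory neurons had 6 and 1 (76.3%, 40.5% and 35.8%). Oligodendrocyte precursors had 2 higher and 3 lower (46.3%, 23.5% and 22.9%), mature oligodendrocytes 0 and 9 (71.4%, 32.1% and 39.3%) and microglia 2 and 5 (61.5%, 27.9% and 33.6%). The median log2 difference of the members was 1.34 in astrocytes and -1.25 in mature oligodendrocytes, beside -0.03 and -0.19 over all genes. The 2 limbs of the loop had median log2 differences of opposite sign only in inhibitory neurons, 0.53 for activators and -0.38 for Per, Cry and Nr1d. In excitatory neurons these medians were 0.84 and 0.02. In astrocytes and mature oligodendrocytes the limbs were not opposed. Arntl and Npas2 were higher in astrocytes with all 7 Per, Cry and Nr1d genes. All 3 activators were lower in mature oligodendrocytes with 6 of the 7. The Clock call there (-0.26) was lost without MC CTRL (-0.20, adjusted p = 0.159), PFC CTRL replicate 2 (-0.23, 0.0982), PFC DTA replicate 1 (-0.25, 0.0539) or PFC DTA replicate 2 (-0.24, 0.0764). Per1 was the exception in mature oligodendrocytes, at 0.06 (adjusted p = 0.716), and its sign turned with the scaling: with library totals and no size factor it was -0.34 (adjusted p = 0.0205). That scaling moved the median of all genes by -0.41 in mature oligodendrocytes, -0.37 in microglia, 0.42 in oligodendrocyte precursors, 0.27 in inhibitory and 0.18 in excitatory neurons.

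Neurons against glia and vessel cells gave 9 of 10 members called, 6 higher and 3 lower, where 79.0% of all genes were called (41.3% higher and 37.7% lower). Npas2 (log2 difference 1.80, SE 0.196, adjusted p = 3.1e-12), Cry2 (1.29), Clock (0.72), Per2 (0.68), Arntl (0.36) and Nr1d2 (0.27) were higher in neurons. Nr1d1 (-0.57), Cry1 (-0.53) and Per1 (-0.52) were lower. Within neurons, inhibitory cells had less than excitatory cells of 6 members, more of 1, and 49.2% of all genes were called (23.2% higher and 26.0% lower). The 6 were Per3 (-1.63, SE 0.142, adjusted p = 8.17e-15), Npas2 (-1.59), Per2 (-1.45), Arntl (-0.93), Nr1d1 (-0.85) and Per1 (-0.67). Nr1d2 was higher in inhibitory neurons (0.35, adjusted p = 0.0162), a call that was lost without MC CTRL (0.25, 0.143) or MC DTA (0.30, 0.051). Clock (-0.12, 95% interval -0.32 to 0.09, adjusted p = 0.359) and Cry1 (0.10, -0.19 to 0.40, 0.674) did not pass. Cry2 (-0.25, 0.073) passed when PFC DTA replicate 3 was left out (-0.30, 0.0298).

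Among neuron subtypes, described over the libraries with at least 30 of their cells and not tested, Per3 varied most. It averaged 67.1 CPM (42.9 to 85.9) in layer 2/3 and 58.7 CPM (40.5 to 93.9) in layer 5 near-projecting excitatory neurons, but 16.8 CPM (6.67 to 27.8) in layer 5 extratelencephalic neurons, which send axons out of the telencephalon. In those same cells Cry2 averaged 80.1 CPM and Arntl 40.4 CPM, near the top of the excitatory range, so the low Per3 level was not shared by these 2 members. The extratelencephalic values come from the 5 PFC libraries only, and the near-projecting values from 6 libraries, without MC DTA. Those of layer 2/3 come from all 7, so area is mixed into this comparison. Among interneurons Per3 averaged 28.9 CPM in Lamp5, 25.8 CPM in Vip, 15.1 CPM in Sst and 9.65 CPM in Pvalb cells. The Vip cluster held the markers of Sncg or Cck interneurons at an equal relative level, so its values may cover both kinds of cell.

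Npas2 averaged 21.3 CPM (16.9 to 23.1) in layer 2/3 and 18.1 CPM in layer 4/5 intratelencephalic neurons, against 10.2 CPM in layer 6 corticothalamic, 9.87 CPM in layer 5 extratelencephalic and 4.24 CPM (0.0 to 8.22) in layer 5 near-projecting neurons. Its lower mean in inhibitory neurons was not uniform, with 12.7 CPM in Lamp5 cells and 3.63 CPM in Sst cells. Nr1d1 averaged 45.1 CPM (29.4 to 58.1) in layer 4/5 intratelencephalic neurons and 13.4 CPM (6.10 to 22.1) in layer 5 near-projecting neurons, 2 ranges that did not overlap. The layer 4/5 subtype was 1 cluster of 718 deep cells, with a median of 13493.5 UMIs. A larger cluster nearest to the same subtype, of 1792 cells, held fewer than 3 of its markers. It was left unnamed and is not in these values, nor are unnamed excitatory clusters of 1456, 1261 and 287 cells. Nr1d2 averaged 87.4 CPM in Pvalb cells, with 48.5 CPM in the lowest library, and 44.4 CPM (36.6 to 64.2) in Vip cells. Clock was the most even member, with subtype means from 75.1 to 91.7 CPM.

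**Figure D2:**
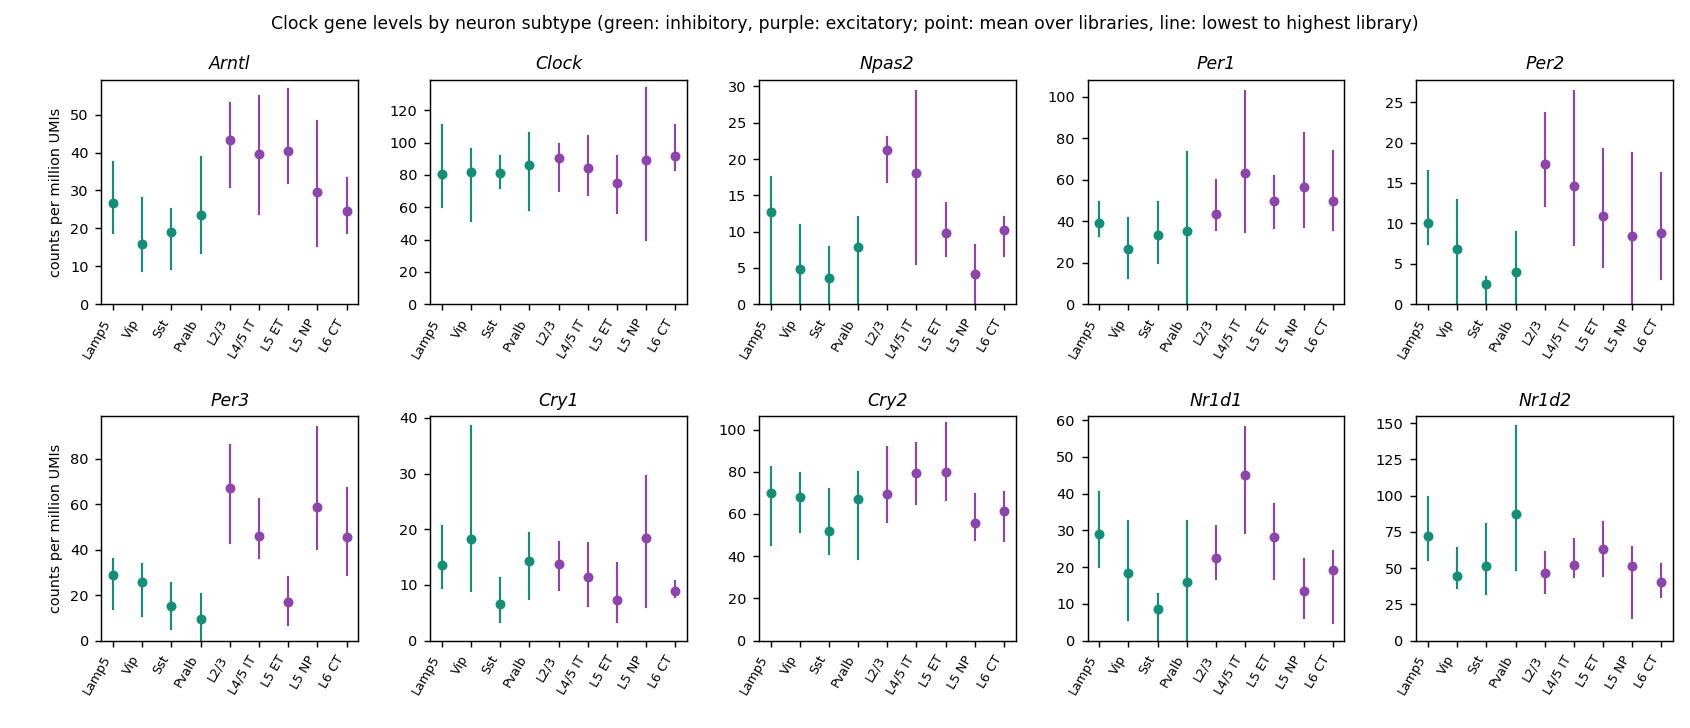
Each panel plots 1 clock gene by neuron subtype, with the mean over libraries as a point and the lowest to highest library as a line, in CPM; green marks inhibitory and purple excitatory subtypes, and the Vip cluster also holds Sncg or Cck markers. Per3 is low in layer 5 extratelencephalic neurons (L5 ET, 16.8 CPM, PFC libraries only) and high in layer 2/3 (67.1 CPM, all 7 libraries), and Clock is nearly flat.

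Classes with too few cells for a test were pooled over the 7 libraries, with exact 95% Poisson intervals that cover counting error only. Pericytes, the mural cells of capillaries, had 120 CPM of Nr1d1 (98.8 to 145, 550 cells) and 88.1 CPM of Cry2 (69.8 to 110), where endothelial cells averaged 67.1 and 14.6 CPM. Fibroblasts had 119 CPM of Nr1d1 (87.1 to 160, 145 cells) and 50.4 CPM of Per3 (30.4 to 78.8). Newly formed oligodendrocytes had 37.8 CPM of Cry1 (49 UMIs in 454 cells), above the 15.4 CPM average of their precursors and the 8.19 CPM of mature oligodendrocytes, and 34.7 CPM of Per3 (25.3 to 46.5), between the 88.4 and 7.26 CPM of those stages.

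In the PFC, no clock gene passed the test between DTA and CTRL in any class. Of 70 gene-by-class pairs 51 had enough counts, 0 were called, and 0.0% of all pairs of genes and classes were called. At an unadjusted p under 0.05 there were 3 of 51 (2.62% of all pairs), and DESeq2 also called 0. The pairs without enough counts were mainly in microglia and mature oligodendrocytes, where 4 of 10 members each could be tested. In sums over all cells, where a change in cell makeup and a change in level per cell cannot be told apart, 0 of 10 were called and 1, Nr1d2, had an unadjusted p under 0.05 (0.0% and 2.14% of all genes). In simulated data for these libraries the test found 63% of 2-fold and 98% of 4-fold changes in excitatory neurons and 26% and 89% in astrocytes, so changes under 2-fold were often not detectable. The simulation changed 100 genes at each fold together, all with counts above what the filter asks. The rates for a single changed member may therefore be lower.

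Nr1d2 in excitatory neurons was the smallest p. The DTA libraries had 38.05, 40.4 and 41.7 CPM, against 48.7 and 59.4 CPM in the CTRL libraries. All 3 DTA values lay below both CTRL values. The log2 difference was -0.38 (SE 0.148, 95% interval -0.71 to -0.06, edgeR adjusted p = 1.0), so it did not pass. In excitatory neurons 1.87% of all genes had an unadjusted p under 0.05. The Nr1d2 difference was also below 0 in oligodendrocyte precursors (-0.47), inhibitory neurons (-0.19), endothelial cells (-0.15) and astrocytes (-0.14), and above 0 in mature oligodendrocytes (0.49) and microglia (0.07), none of them called.

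The other members of the 3 were Clock in oligodendrocyte precursors and Nr1d1 in inhibitory neurons. Clock had 47.7, 66.5 and 48.9 CPM in DTA and 139 and 75.7 CPM in CTRL precursors, a log2 difference of -0.81 (SE 0.349, edgeR adjusted p = 0.998). Nr1d1 had 8.93, 17.1 and 21.1 CPM in DTA and 5.42 and 13.9 CPM in CTRL inhibitory neurons, with overlapping groups and a log2 difference of 0.79 (SE 0.359, edgeR adjusted p = 1.0). Unadjusted p-values under 0.05 were 3.8% of all genes in oligodendrocyte precursors and 3.85% in inhibitory neurons. Arntl, which REV-ERB alpha represses, differed by 0.05 in inhibitory neurons.

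Arntl in excitatory neurons had 37.5, 37.7 and 37.7 CPM in DTA and 34.4 and 28.7 CPM in CTRL libraries (log2 difference 0.30, SE 0.163, edgeR adjusted p = 1.0). Across the 51 pairs, groups did not overlap in 11, 3 with DTA above and 8 with DTA below, where 16.4% of all pairs did not overlap. Those above were Cry1 in astrocytes, Arntl in endothelial cells and Arntl in excitatory neurons. Those below were Cry2 and Npas2 in astrocytes, Clock, Nr1d2 and Per2 in excitatory neurons, and Clock, Nr1d2 and Per3 in oligodendrocyte precursors. None of the 11 passed the test.

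**Figure D3:**
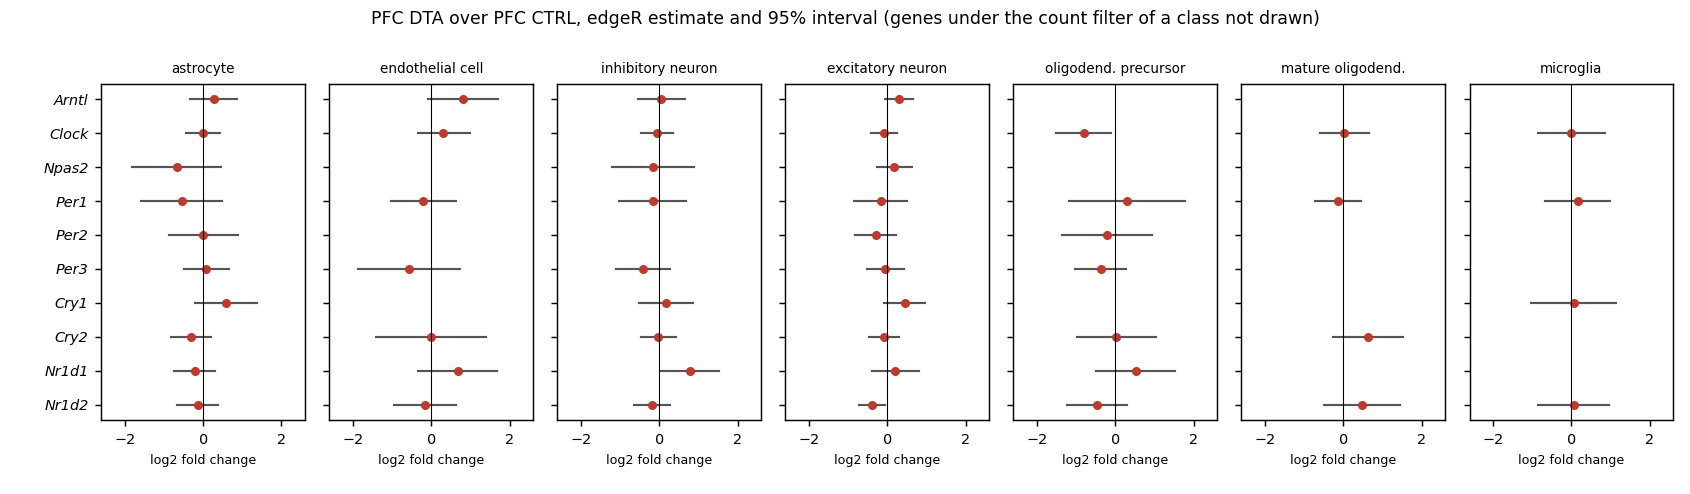
Each panel is a cell class and each row a clock gene, with the log2 fold change of PFC DTA over PFC CTRL as a point and its 95% interval as a line (x axis); pairs under the count filter are not drawn. Intervals exclude 0 for Nr1d2 in excitatory neurons, Nr1d1 in inhibitory neurons and Clock in oligodendrocyte precursors, and none of these passed the adjusted test.

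The motor cortex pair, 1 DTA and 1 CTRL library, has no replicate check, and its ratios carry exact intervals for counting error only. Of 61 gene-by-class pairs with at least 10 UMIs, 13 intervals excluded a ratio of 1, 3 with DTA higher and 10 with DTA lower, and 20.8% of all such pairs did so. Nr1d2 was lower in MC DTA in 7 of 7 classes. It had 57.9 against 90.6 CPM in astrocytes, 30.4 against 63.5 CPM in endothelial cells, 68.3 against 102 CPM in inhibitory neurons, 47.2 against 60.2 CPM in excitatory neurons, 8.19 against 17.7 CPM in mature oligodendrocytes and 24.7 against 56.5 CPM in microglia (DTA against CTRL). These 6 intervals lay below 1, with log2 ratios from -0.35 in excitatory neurons (-0.51 to -0.20) to -1.19 in microglia (-2.11 to -0.32), and oligodendrocyte precursors had -0.33 (-1.74 to 1.01). Background rates in these classes ran from 16.0% to 36.9%. The classes come from the same 2 libraries, so they are not separate checks. The share of all genes lower in MC DTA in 5 or more of the 7 classes was not counted.

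Per3 was lower in MC DTA in 5 of 7 classes and higher in astrocytes (log2 ratio 0.11, -0.25 to 0.46) and endothelial cells (0.50, -0.95 to 2.15). Its intervals lay below 1 in inhibitory neurons (log2 ratio -0.56, -1.11 to -0.03), excitatory neurons (-0.56, -0.71 to -0.41) and mature oligodendrocytes (-1.59, -3.33 to -0.19). Clock was lower in excitatory neurons (-0.21, -0.32 to -0.10). The 3 pairs with DTA higher were Nr1d1 (0.37), Per1 (0.22) and Arntl (0.17), all in excitatory neurons, where 36.9% of all genes had such an interval. The MC DTA cells were deeper than the MC CTRL cells, with medians of 4752 and 2642 UMIs, their astrocytes lay mostly in different clusters, and the part of either in these ratios was not tested.

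**Figure D4:**
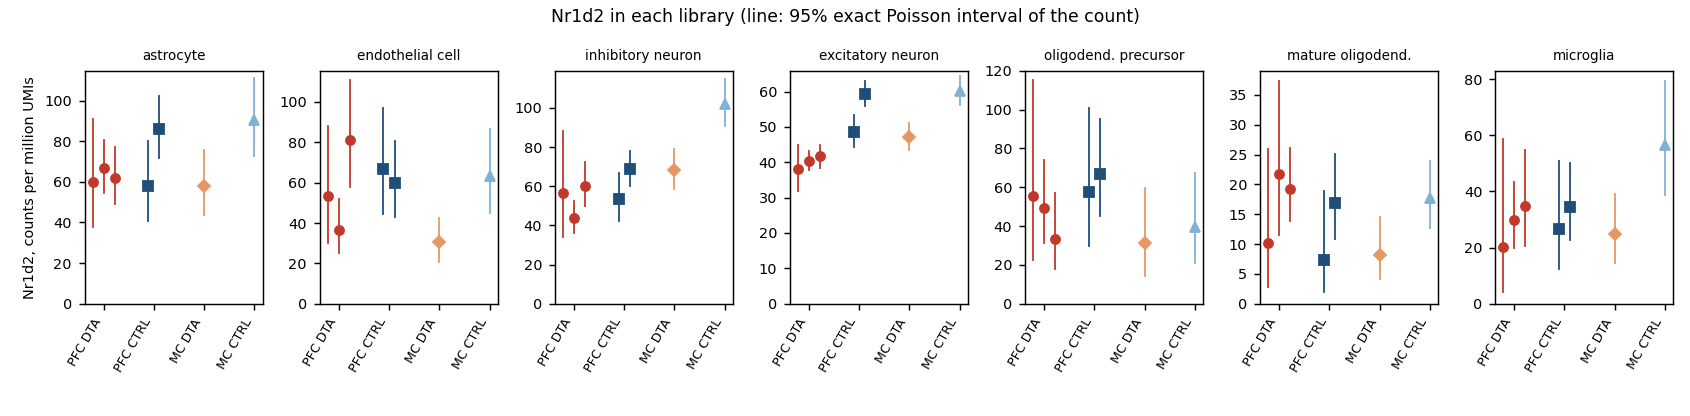
Nr1d2 in CPM (y axis) in each library, by cell class (panels) and group (x axis); points are libraries and lines exact 95% Poisson intervals of the count. In excitatory neurons the 3 PFC DTA libraries (38.05 to 41.7 CPM) lie below the 2 PFC CTRL libraries (48.7 and 59.4 CPM), and MC DTA (47.2 CPM) below MC CTRL (60.2 CPM).

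A fit of all 7 libraries with area as a term, chosen after the values were seen, gave a DTA-CTRL log2 difference of -0.36 for Nr1d2 in excitatory neurons (SE 0.105, edgeR adjusted p = 0.937), and -0.35 (SE 0.11, adjusted p = 0.931) with depth per cell as a further term. Neither passed, and no other member was called in these fits. The test of whether the genotype difference itself differed between MC and PFC called 0 of 59 pairs, with 0 at an unadjusted p under 0.05, and 0.0% of all pairs were called. That test rests on 1 library per genotype in MC.

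Between areas, 0 of 55 pairs passed in MC against PFC with genotype as a term, while 1.53% of all pairs did. At an unadjusted p under 0.05 there were 4, against 8.67% of all pairs. Nr1d2 in inhibitory neurons had the smallest: 68.3 and 102 CPM in the MC libraries, against 43.7 to 68.8 CPM in the 5 PFC libraries. Only MC DTA fell within the PFC range. The log2 difference was 0.56 (SE 0.172, edgeR adjusted p = 0.101), and it passed when PFC DTA replicate 3 was left out (0.66, adjusted p = 0.039) or with no filter on low counts (0.57, 0.0419). Nr1d1 in inhibitory neurons differed by 0.72 (adjusted p = 0.185), with 25.6 and 20.7 CPM in MC and 5.42 to 21.1 CPM in PFC. Both contrasts pool all interneurons, and Nr1d2 averaged 87.4 CPM in Pvalb cells but 44.4 CPM in Vip cells. The part of the interneuron subtype mix of each area in these differences was not tested.

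Per1 in astrocytes was lower in MC, 33.7 and 35.2 CPM, than in PFC, 38.2 to 135 CPM, with no overlap (log2 difference -1.05, SE 0.436, edgeR adjusted p = 0.557). It passed with no filter on low counts (adjusted p = 0.0124). Immediate early genes, which neuronal activity and tissue dissociation raise, summed to 1590 and 1250 CPM in the same MC astrocytes. The sums in PFC astrocytes were 5730, 4450 and 2400 CPM in DTA and 3910 and 2820 CPM in CTRL. The log2 deviations of Per1 from the mean of the 7 libraries were -0.463, 0.135 and 0.367 in these DTA libraries. They were 1.322 and -0.082 in CTRL, so sum and Per1 did not share an order within PFC. The part of these genes in the Per1 difference was not tested. Arntl in excitatory neurons was the fourth pair, at 0.28 (adjusted p = 0.278). Of all genes, 0.271% were called in astrocytes, 2.07% in inhibitory and 5.41% in excitatory neurons, and 8.43%, 14.9% and 17.8% had an unadjusted p under 0.05 in these classes.

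Since the time of day of each library is not given, the libraries were also described singly, by the log2 deviation of each from the mean of the 7 within a class. Per1 kept its sign across classes in some libraries. It was above the mean in 7 of 7 classes in PFC CTRL replicate 1 and in 0 of 7 in PFC DTA replicate 1. The size was uneven, from -0.057 in mature oligodendrocytes to -2.685 in oligodendrocyte precursors in PFC DTA replicate 1. PFC CTRL replicate 1 was highest in 6 of 7 classes, with a median deviation of 0.68, and PFC DTA replicate 1 was lowest in 4 of 7, with a median of -0.46. The 2 PFC CTRL libraries thus lay far apart, at 81.0 and 39.3 CPM of Per1 in excitatory neurons, with the DTA libraries between them at 47.3, 50.4 and 57.9 CPM. The immediate early gene sum in those cells was likewise 2930 and 1120 CPM in the CTRL libraries and 1870, 1630 and 2710 CPM in the DTA libraries, and the part of such genes in Per1 was not tested. In PFC astrocytes, as given above, the immediate early gene sum and Per1 did not share an order. Glucocorticoid-induced genes summed to 369 and 307 CPM in CTRL excitatory neurons and 371, 357 and 293 CPM in DTA. Their sums in astrocytes were 22400 and 8310 CPM in CTRL and 18100, 20900 and 16000 CPM in DTA. The part of these genes in Per1 was not tested either.

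Cry1 was highest in PFC DTA replicate 1 in 4 of 7 classes (median deviation 0.38), and Nr1d2 was highest in MC CTRL in 4 (0.35) and lowest in MC DTA in 3 (-0.35). PFC DTA replicate 1 had the fewest UMIs in every class. The classes where its Cry1 was highest or its Per1 lowest had 125761 to 393339 UMIs, so these extremes rest on few counts. How often other genes are highest or lowest in as many classes was not counted. For Clock, library medians lay within -0.20 to 0.12. The log2 ratio of summed Arntl, Clock and Npas2 counts to summed Per, Cry and Nr1d counts, which has no meaning as a level but can be followed across libraries, was -0.86, -0.92 and -1.01 in PFC DTA excitatory neurons and -1.10 and -1.07 in PFC CTRL. All 3 DTA values were above both CTRL values in excitatory neurons, astrocytes and endothelial cells, and all 3 were below both in oligodendrocyte precursors (-1.58, -1.58 and -2.24 in DTA, -1.21 and -1.53 in CTRL). They overlapped in inhibitory neurons (-0.63, -0.69 and -1.19 in DTA, -1.04 and -0.84 in CTRL), mature oligodendrocytes and microglia, and in sums over all cells (-0.96, -1.02 and -1.18 in DTA, -1.21 and -1.17 in CTRL). In excitatory neurons the MC libraries had -0.87 in DTA and -0.89 in CTRL. In astrocytes the range was wider, -1.66, -2.18 and -2.17 in PFC DTA, -2.24 and -2.36 in PFC CTRL, -2.40 in MC DTA and -2.35 in MC CTRL, and PFC DTA replicate 1, with 42 activator and 133 repressor UMIs, set the upper end. In oligodendrocyte precursors the PFC ratios rested on 8 to 43 activator UMIs a library. How often such ratios of other genes separate the PFC groups was not counted.

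**Figure D5:**
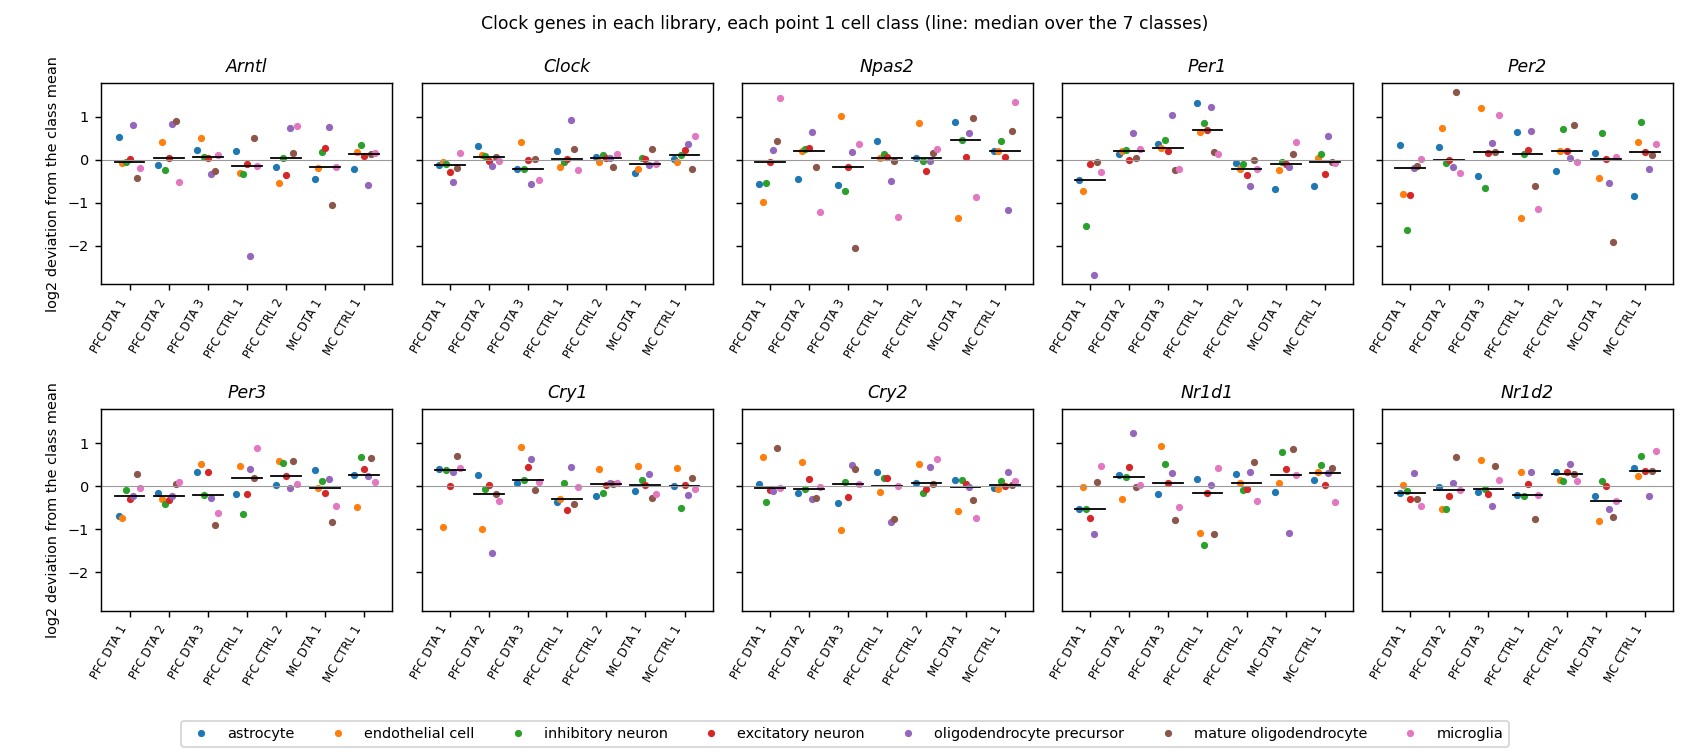
Each panel plots 1 clock gene, with libraries on the x axis and the log2 deviation from the mean of the 7 libraries in a class on the y axis; each point is a cell class and each black line the median over the 7 classes. Per1 stands highest in PFC CTRL 1 (median 0.68) and lowest in PFC DTA 1 (median -0.46), and Nr1d2 stands highest in MC CTRL 1 (0.35) and lowest in MC DTA 1 (-0.35).

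Genes downstream of the loop were counted from a list of 10 circadian output genes. Between classes, 27 of their 70 tests were called higher and 26 lower. The same test called most of all genes and classes, as given above, so this count is not particular to the list. Dbp, a PAR bZIP factor that binds D-boxes, was higher in astrocytes (log2 difference 2.37, SE 0.0960, edgeR adjusted p = 3.47e-29), as were the E-box repressors Bhlhe40 (2.29) and Bhlhe41 (1.79), and Dbp was lower in mature oligodendrocytes (-1.84). Hlf, another PAR bZIP factor, was higher in excitatory neurons (2.05) and lower in mature oligodendrocytes (-2.39), where Nfil3, which opposes these factors at D-boxes, was higher (2.27). Nampt, the rate-limiting enzyme of NAD salvage, was higher in endothelial cells (2.95), with the E-box repressor gene Ciart (1.89), and Usp2, a deubiquitinase, in microglia (2.10). PFC DTA against CTRL called 0 of 55 tests of this list, and MC against PFC called 1 of 60: Hlf in inhibitory neurons, with 90.4 and 128 CPM in MC and 38.7 to 55.5 CPM in PFC (1.14, adjusted p = 0.000827). Few of all pairs of genes and classes were called in these comparisons, as given above.

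Of 12 regulators of the loop outside the members, 9 had enough counts in the class model, and 20 of 63 tests were called higher and 22 lower. Here too most of all genes and classes were called. Rorb and Rora, which activate through the ROR element that the REV-ERBs repress, were higher in astrocytes (5.32 and 1.38), and Rora was higher in inhibitory neurons (1.32) and lower in mature oligodendrocytes (-1.68). The casein kinase genes Csnk1e and Csnk1d, whose products phosphorylate PER proteins, were higher in microglia (1.82 and 0.91) and lower in astrocytes (-1.13 and -0.52). Timeless was higher in endothelial cells (4.62). PFC DTA against CTRL called 0 of 59, and MC against PFC called 1 of 60, Rora in inhibitory neurons (0.77, adjusted p = 0.00608). As for the output genes, few of all pairs were called in these comparisons.

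Lists that follow activity, stress or handling were counted in the same way. PFC DTA against CTRL called 0 of 79 tests of 13 immediate early genes, 0 of 47 of 8 glucocorticoid-induced genes, 0 of 37 of 7 heat shock genes, 0 of 55 of 8 RNA quality and blood genes and 0 of 35 of the 6 free RNA gauge genes. In PFC DTA replicate 3 the RNA quality and blood sum was 71200 CPM in excitatory neurons, against 29800 to 36800 CPM in other libraries. In oligodendrocyte precursors it was 76000 CPM, below the 80500 CPM of MC DTA. The immediate early sum of this library was 3380 CPM in inhibitory neurons, against 259 to 1200 CPM elsewhere. In astrocytes that sum was 2400 CPM, the lowest of PFC. What part this had in the member values was not tested. MC against PFC called 1 of 79 immediate early tests (Junb in astrocytes, -1.48, adjusted p = 0.00949), 1 of 47 glucocorticoid tests (Mt1 in inhibitory neurons, 0.59, 0.0371), 0 of 38 heat shock tests, 0 of 56 RNA quality and blood tests and 1 of 38 gauge tests (Neurod6 in excitatory neurons, -0.62, 0.0171). Between classes the counts higher and lower were 34 and 35 of 91 immediate early tests, 19 and 24 of 56 glucocorticoid tests, 18 and 22 of 49 heat shock tests, 19 and 23 of 56 RNA quality and blood tests and 7 and 17 of 42 gauge tests. Most of all genes and classes were called between classes, and few between genotypes or areas, as given above.

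The genes most like Nr1d1 and Arntl were ranked by the Pearson correlation of log2 CPM deviations from the class mean, over 49 values (7 classes in 7 libraries, which share their depth and source) and 5192 genes, as a description with no test. Nearest to Nr1d1 were Eif2b4 (0.553), Strn4 (0.53), Asap1 (0.528), Elp2 (0.5) and Mpst (0.499). Nearest to Arntl were Snw1 (0.674), Wipf2 (0.645), Mta1 (0.640), Tbc1d20 (0.588) and Pias2 (0.580). Of the members, 5 were among the genes compared. Nr1d1 had 0.254 with Per1, 0.174 with Clock, 0.092 with Nr1d2 and -0.09 with Arntl. Arntl had 0.165 with Nr1d2, -0.33 with Per1 and -0.328 with Clock.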

How the data were processed

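Per the labels' protocols, dissociated cortical cells were captured with the 10x 3' version 2 chemistry, and the authors deposited unique molecular identifier counts per gene and cell. Cell Ranger 3.0.2, Seurat and mm10 are named in the submitters' processing notes, with no roles given. Doublets were scored with scrublet and removed. Its automatic call found 0 of 6072 cells in PFC DTA replicate 3, so the 295 highest-scoring cells were removed there. Cells were clustered (scanpy 1.11.5, leidenalg 0.10.2, 2000 variable genes, 30 components, 20 neighbours, resolution 1.0) with the members and the other circadian genes left out. Clusters were named from marker lists.

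Counts were summed per library and class, at 30 cells or more. They were tested with edgeR 4.0.16 (robust quasi-likelihood, TMM size factors, filterByExpr at a count of 10, Benjamini-Hochberg threshold 0.05) in R 4.3.3 with limma 3.58.1. DESeq2 1.42.0 was an alternative. Class contrasts came from 1 model with the library as a block, and area contrasts had genotype as a term. CPM values use class totals without size factors. Nothing says that libraries came from separate animals, so p-values measure the spread between these libraries, which may be technical. The scripts were tested on simulated counts. All 10 members are named. Of each other list, the called genes with the smallest p, up to 4 a class, could be named, and the text names some of these. The members and lists were chosen with earlier results of these data known.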

Additional observations from a re-analysis of the deposited data

How the results depend on the processing

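In the PFC, 0 members were called between DTA and CTRL per class or over all cells under every alternative run: other size factors, no filter on low counts, doublet calls kept, 2 other clustering resolutions, DESeq2, each library left out in turn, and the fits added after the data were seen. The replicate numbers shared by DTA and CTRL pair no samples by design. With the replicate number as a block, 0 of 52 members per class and 0 of 10 over all cells were called, and correlations of same-numbered deviations ran from -0.233 to 0.21. For MC against PFC, 0 members were called in the main analysis, 2 with no filter on low counts (Nr1d2 in inhibitory neurons and Per1 in astrocytes) and 0 to 1 with a library left out, the 1 being Nr1d2 in inhibitory neurons without PFC DTA replicate 3. Between classes, 53 members were called, 45 of 60 at resolution 0.5, where endothelial cells had no cluster of their own, 55 with library totals and no size factor, and 49 to 52 with a library left out. Over single members and alternatives there, 852 results stayed on their side of the threshold, 34 lost the call, 13 gained it and 1 passed with the opposite sign: Per1 in mature oligodendrocytes, at -0.34 with library totals and no size factor. Counting uncalled values too, the sign differed in 25 class results (the same in 875), 79 PFC results per class (676), 7 over all cells (83), 47 for MC against PFC (652) and 3 for the MC pair (58). Inhibitory against excitatory neurons gave 6 to 8 calls, and neurons against the other classes 9, or 10 with library totals and no size factor. The MC pair had 13 intervals that excluded 1, and 14 with TMM size factors. In simulated PFC libraries with 100 genes changed at each fold, the test found 63% of 2-fold changes in excitatory neurons and 26% in astrocytes. Such changes may be missed.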
